A study of Homo sapiens with 18 samples.

Results

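The genes described here encode the proteins of the small subunit of the cytosolic ribosome. They were taken by symbol: RPSA, FAU, and every protein-coding RPS gene with a ribosomal protein number, with or without X, A or L after it, leaving out the RPS6K kinases, RPS19BP1 and pseudogenes. The rule used no measured value and found 33 genes of the 15258 in the expression table. MEL624 is an established human melanoma line, and the study asked what loss of PCIF1 does to its mRNA. The control line has the wild-type genotype with a random sgRNA, and KO1 and KO2 are clonal PCIF1 knockout lines, so that each is 1 clone. All 3 lines grew in the same medium, with 3 replicates a line, A to C, that the series design calls biological. The 9 input mRNA libraries were analysed, and the 9 libraries of m6A-immunoprecipitated mRNA were not analysed here.

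The small subunit, also called the 40S subunit, binds the mRNA and holds the decoding centre, while the large subunit joins the amino acids. In vertebrates nearly all mRNAs of ribosomal proteins are terminal oligopyrimidine (TOP) mRNAs: they begin with a C and a run of pyrimidines, and the kinase mTOR controls their translation through this run. PCIF1 methylates an adenosine that follows the mRNA cap, which gives m6Am, so the first transcribed base of a gene is of interest here. The start bases below were taken from RefSeq, build GRCh38.p14, at the start sites its table lists.

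An entry was found for 26 of the 33 genes. Among those with no match were RPS2, RPS15A and RPS20. Of the 26, 19 genes (73.1%) had a listed start with a C followed at once by at least 4 bases that were C or T, read on the gene's own strand. The same run stood at 1429 of all 35116 listed starts (4.07%), and 6.32% of protein-coding genes with a start had it. Of the 39 large-subunit genes with a start, 28 had it. Each window shown holds 15 bases before the annotated start and 15 from it on, written 5′ to 3′, and capitals mark the start base with the unbroken run of C and T from it. The first 6 belong to genes that the comparisons turn on and that carry the run.
RPSA: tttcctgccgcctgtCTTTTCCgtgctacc
RPS24: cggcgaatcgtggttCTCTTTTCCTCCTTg
RPS21: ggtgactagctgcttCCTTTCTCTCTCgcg
RPS9: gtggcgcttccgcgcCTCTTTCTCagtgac
RPS6: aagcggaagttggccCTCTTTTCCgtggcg
FAU: cgccctcgcttcttcCTCTTTCTCgactcc
These windows lie at chr3:39406705-39406734 (plus strand) for RPSA, chr10:78033848-78033877 (plus) for RPS24 and chr20:62387088-62387117 (plus) for RPS21. Those of RPS9, RPS6 and FAU lie at chr19:54200843-54200872 (plus), chr9:19380222-19380251 (minus) and chr11:65122120-65122149 (minus).

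At their listed starts 7 genes lacked the run, namely RPS4X, RPS7, RPS15, RPS26, RPS27L, RPS28 and RPS29. The windows of 4 of them, in which an A or another base that is not C stood first, are shown. RPS26 has a G first, and its window is not shown. A single capital is the start base alone.
RPS28: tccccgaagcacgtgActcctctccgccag
RPS4X: gcagtctccagccccAatttctacgcgcac
RPS29: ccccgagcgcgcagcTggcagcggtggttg
RPS27L: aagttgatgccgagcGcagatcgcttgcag
They lie at chr19:8321481-8321510 (plus), chrX:72277234-72277263 (minus), chr14:49598696-49598725 (minus) and chr15:63157463-63157492 (minus). RPS28 and RPS4X were the 2 genes of this set with an A at every listed start, while A stood first at 44.4% of all listed starts and C at 14.7%. An annotated start need not be the base that MEL624 cells use, and cap analysis data were not used here. The letters describe these windows and say nothing on methylation.

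Abundance is given as TPM, transcripts per 1000000, which is scaled by a length for each gene. The sources used here do not state which length was used. RPS24 held 4137 to 7533 reads in a library and RPS12 2880 to 3964, with GENCODE 44 canonical transcripts of 534 and 503 bases. Their control means were 222 and 1583 TPM. The length used was therefore not that of these transcripts, and a comparison between genes depends on it. All 33 genes passed the filter of a mean of at least 1 TPM, which left 14512 genes in the test. Libraries held between 7848089 and 11393206 reads on genes, and a small-subunit gene had at least 392 reads in a library (RPS10). The targeted gene checks the labels: PCIF1 stood at 55.2, 62 and 55.6 TPM in control A to C, at 24.7, 22 and 25.3 TPM in KO1 and at 58, 64.7 and 58.1 TPM in KO2. KO1 lay below every control library (log2 fold change -1.26, limma adjusted p = 1.65e-06), and KO2 overlapped the control (0.07, limma adjusted p = 0.542). The sources used here do not state which base was edited, so the mRNA level does not check the label of KO2. Of 7 melanocyte lineage markers the table lists MITF, at 36 to 38.3 TPM in the control, 24.3 to 29.1 in KO1 and 47.5 to 52 in KO2, and does not list TYR, DCT, PMEL, MLANA, SOX10 or S100B. Of 4 fibroblast markers it lists COL1A1 and LUM, whose summed level was 0.745 to 1.02 TPM in the control, 2.76 to 3.52 in KO1 and 1.26 to 1.87 in KO2, and it lists none of the epithelial, endothelial and leukocyte markers. The markers' part in the results was not tested.

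**Figure D1:**
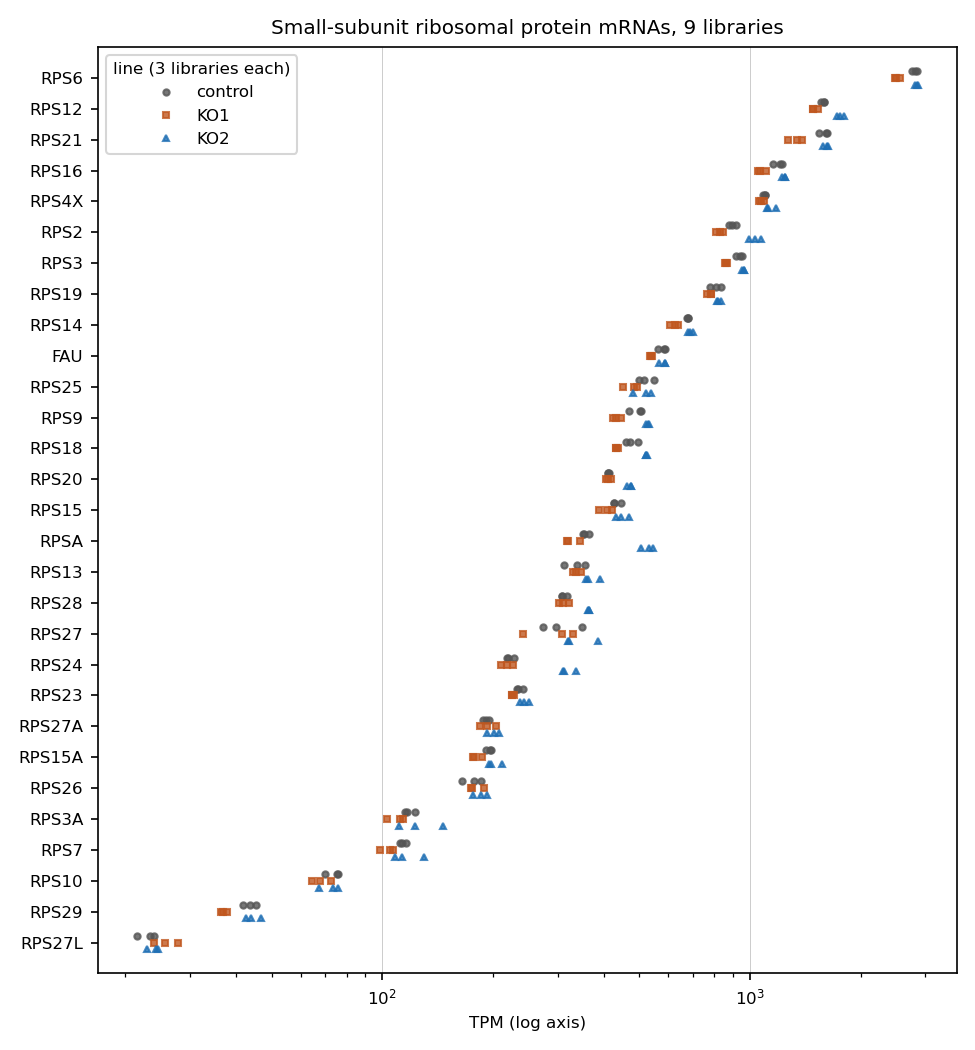
TPM of 29 of the 33 small-subunit ribosomal protein genes (rows, ordered by mean level) on a log axis, with 1 point for each of the 9 libraries by line. RPS6 is at the top, from 2489 to 2865 TPM, and RPS27L at the bottom, from 21.5 to 27.8 TPM. The KO2 points of RPSA and RPS24 stand to the right of the other lines.

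Although the ribosome holds most of these proteins in equal numbers, the mRNA levels of the set in TPM spanned a wide range. Their order depends on the length used for each gene. RPS6, the body protein that S6 kinases phosphorylate, was the highest with 2810 ± 49 TPM in the control (SD, n = 3). RPS21 had 1589 ± 41.1 and RPS12 had 1583 ± 16.8 TPM (SD, n = 3). RPS12 and RPS21 did not differ beyond their spread in the control libraries.

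At the low end stood RPS10, a head protein at the mRNA entry side, with 73.7 ± 3.34 TPM, and RPS29, a zinc-binding head protein, with 43.7 ± 1.74 TPM (control, SD, n = 3). RPS27L, a close paralog of RPS27 that is known as a p53 target, was the lowest with 22.9 ± 1.24 TPM, whereas RPS27 had 307 ± 39.1 TPM. The order is that of TPM alone: RPS29 held 923 to 1452 reads in a library and RPS27 625 to 1177. Their canonical transcripts have 295 and 352 bases. Middle levels were found for FAU (577 ± 14.2 TPM), which encodes a ubiquitin-like protein fused to the ribosomal protein eS30, and for RPSA (357 ± 7.85 TPM), the protein also known as the laminin receptor. RPS27A, made as a fusion with ubiquitin itself, stood at 192 ± 3.7 TPM.

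Mean levels of the set and copy numbers in the genome were also set side by side, because reads of a processed pseudogene and its parent can be exchanged. GENCODE 44 annotates 498 pseudogenes of these genes, 74 of them of RPSA, 53 of RPS3A, 36 of RPS26, 32 of RPS29 and 30 of RPS27. Across the 33 genes, which share all libraries, mean TPM and the number of pseudogenes had a Spearman rho of -0.311, given as a description. The table lists 32 of the pseudogenes, for 13 parents. Their reads came to 9.78% of the parent's for RPS2, 8.1% for RPS26, 5.89% for RPS10 and 4.61% for RPS3A, and to lower shares for the others. These shares set no upper limit on the uncertainty, since the sources used here do not state how reads with several matches were counted. With the pseudogene reads added to the parent, no call of a small-subunit gene changed. This cannot show the effect of reads that were dropped or were counted on the parent.

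In KO1, the mRNAs of the small subunit were lower. Of the 33 genes, 13 fell at a limma adjusted p under 0.05 and none rose, where 14.1% of all tested genes fell and 20.2% rose. Of all genes called in KO1 58.9% were higher, and 47.1% by limma-voom on the reads, which called 22 small-subunit genes lower and none higher. At an unadjusted p under 0.05, 18 were lower and 1, RPS27L, was higher. The median log2 fold change of the set was -0.11, which is 92.7% of the control level, against 0.035 over all tested genes, and 28 of 33 values were below 0. The KO1 libraries did not overlap the control libraries for 23 genes, 22 of them lower in KO1, and 20.7% of all tested genes were lower without overlap. The differences were small, none of the 13 being larger than that of RPS21.

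RPS21, a small body protein next to RPSA at the back of the subunit, stood at 1542, 1608 and 1618 TPM in control A to C, at 1383, 1347 and 1271 TPM in KO1 and at 1576, 1624 and 1634 TPM in KO2. All KO1 libraries lay below the other 6, and the control and KO2 libraries overlapped. The log2 fold change in KO1 was -0.25 ± 0.038 (SE; limma adjusted p = 0.000738).

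RPS29 stood at 45.4, 43.8 and 41.9 TPM in the control, at 37.7, 36.9 and 36.3 TPM in KO1 and at 43.9, 42.6 and 46.8 TPM in KO2. KO1 was again below every other library and the other lines overlapped, with a log2 fold change in KO1 of -0.24 ± 0.053 (SE; limma adjusted p = 0.00599). RPS29 overlaps RPL32P29 on its own strand and RN7SL1 and LRR1 on the other, and the sources used here do not say whether strand was used in counting.

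RPS9, which sits in the body near the mRNA entry, stood at 469, 502 and 505 TPM in the control, at 446, 425 and 432 TPM in KO1 and at 521, 532 and 529 TPM in KO2. The lines did not overlap, with KO1 lowest and KO2 highest. KO1 differed from the control by -0.18 (log2; limma adjusted p = 0.00432) and 0.10 in KO2, which did not pass the test (limma adjusted p = 0.059).

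Other genes that fell in KO1 included RPS6 (-0.16), RPS16 (-0.15), RPS18 (-0.14), RPSA (-0.13), RPS14 (-0.12), RPS3 (-0.12), RPS2 (-0.12) and FAU (-0.10), all on the log2 scale. RPS3 is the head protein at the mRNA entry channel, RPS14 is a platform protein and the gene known from the loss of 5q in myelodysplastic syndrome, and RPS16 lies in the head. FAU stood at 561, 586 and 584 TPM in the control, at 543, 538 and 535 TPM in KO1 and at 586, 567 and 588 TPM in KO2. Its KO1 libraries lay just below the lowest control library (limma adjusted p = 0.0309), and its reads may include those of SYVN1, which overlaps it on the same strand. Left-out libraries ended this call: FAU no longer passed without control B, control C or any 1 of the KO1 libraries. The call was also lost with quantile normalization, without the variance trend and with the replicate letter as a block. Correction for GC content and length and subtraction of neighbouring genes ended it too, so that it held in 13 of 23 alternatives.

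RPS27L was the gene of the set with the highest value in KO1. It stood at 23.3, 23.9 and 21.5 TPM in the control, at 24, 25.6 and 27.8 TPM in KO1 and at 22.9, 24.6 and 24.2 TPM in KO2. KO1 lay above the control without overlap, by a small margin, but did not pass (log2 fold change 0.17, 95% interval 0.01 to 0.33, limma adjusted p = 0.0925). Its relative RPS27 was at 350, 296 and 274 TPM in the control and 241, 331 and 308 TPM in KO1, which overlapped (-0.07, 95% interval -0.35 to 0.21, limma adjusted p = 0.712). LACTB overlaps RPS27L on the other strand.

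**Figure D2:**
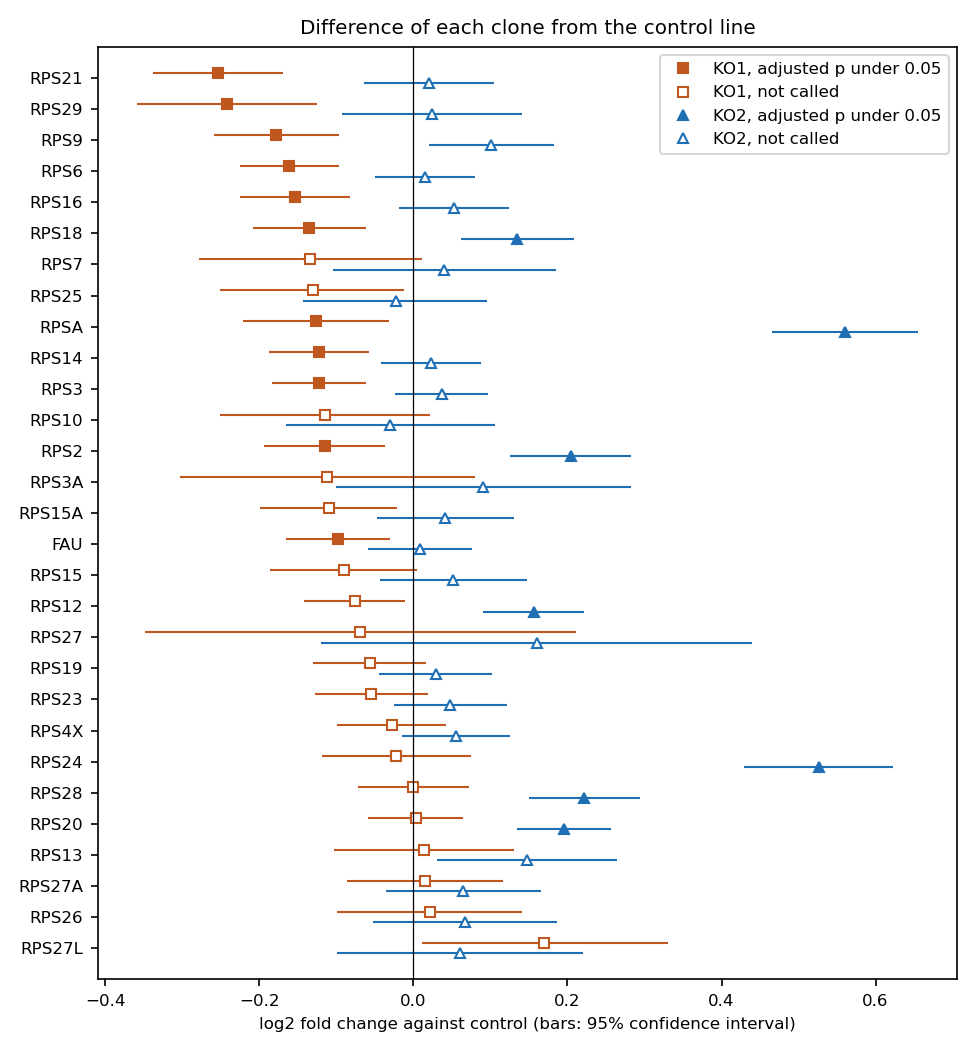
Log2 fold change of KO1 (squares) and of KO2 (triangles) against the control for 29 of the 33 small-subunit genes, with 95% confidence intervals as bars; filled symbols passed an adjusted p under 0.05. The KO1 values run from -0.25 (RPS21) to 0.17 (RPS27L), and the KO2 values of RPSA (0.56) and RPS24 (0.53) stand apart from the other genes. Both clones are set against the same 3 control libraries.

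In KO2, 9 of the 33 genes rose against the control and none fell, where 15.6% of all tested genes rose and 14.8% fell. At an unadjusted p under 0.05, 11 were higher and 0 lower. The median log2 fold change was 0.06, which is 104% of the control, against 0.01 over all tested genes, and 31 of 33 values were above 0. Libraries did not overlap for 15 genes, all higher in KO2, and 22.3% of all tested genes were higher without overlap. This comparison uses the same control libraries as that of KO1, so the values of both clones are not independent of each other.

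RPSA changed more than any other small-subunit gene in KO2. It stood at 354, 366 and 352 TPM in the control, at 320, 345 and 318 TPM in KO1 and at 533, 504 and 545 TPM in KO2. The KO2 libraries were far above the rest, and those of KO1 were below the control by a narrow gap. The log2 fold change was 0.56 ± 0.042 in KO2 (SE; limma adjusted p = 8.67e-06) and -0.13 ± 0.042 in KO1 (limma adjusted p = 0.0423). The fall in KO1 no longer passed when any of 6 single libraries was left out (control A, B or C, KO1 A or C, or KO2 A). It was also lost without the variance trend and with the replicate letter as a block.

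RPS24, a body protein mutated in some families with Diamond-Blackfan anaemia, stood at 228, 220 and 218 TPM in the control, at 210, 219 and 227 TPM in KO1 and at 313, 310 and 337 TPM in KO2. KO2 lay above all other libraries, and KO1 and control libraries overlapped. In KO2 the log2 fold change was 0.53 ± 0.044 (SE; limma adjusted p = 1.49e-05), whereas KO1 was at -0.02 (95% interval -0.12 to 0.08, limma adjusted p = 0.734).

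RPS28, a head protein at the mRNA exit whose listed start is an A, stood at 309, 308 and 319 TPM in the control, at 322, 311 and 303 TPM in KO1 and at 365, 362 and 365 TPM in KO2. The KO2 libraries lay close together above the other 6, which overlapped. The log2 fold change in KO2 was 0.22 ± 0.032 (SE; limma adjusted p = 0.000602), and in KO1 it was 0.00 with a 95% interval from -0.07 to 0.07. NDUFA7 overlaps RPS28 on the other strand. RPS4X, which also starts with an A in RefSeq and whose gene lies on the X chromosome, was called in neither clone (-0.03 in KO1 and 0.06 in KO2 on the log2 scale).

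RPS2, a body protein near the mRNA entry, stood at 914, 896 and 879 TPM in the control, at 831, 844 and 808 TPM in KO1 and at 994, 1033 and 1071 TPM in KO2. The lines did not overlap, and both clones were called, lower in KO1 (-0.12, limma adjusted p = 0.0292) and higher in KO2 (0.20, limma adjusted p = 0.00173). The KO1 call was lost without control A, control B, KO1 A or KO1 C, and after correction for GC content and length (-0.03, limma adjusted p = 0.638). It was also lost without the variance trend, with the replicate letter as a block and with neighbouring genes subtracted.

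RPS18, a head protein that touches the large subunit, was at -0.14 (limma adjusted p = 0.0103) in the first clone and at 0.14 (limma adjusted p = 0.011) in the second. RPSA, RPS2 and RPS18 are among 4 genes that were called in both clones, each lower in KO1 and higher in KO2.

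RPS12, RPS20, RPS24 and RPS28 were among the genes called in KO2 and not in KO1. RPS20, a head protein, had control libraries at 411, 412 and 413 TPM, KO1 libraries at 419, 406 and 412 TPM and KO2 libraries at 464, 474 and 475 TPM. The KO2 libraries stood apart from the other 6 (log2 fold change 0.20, limma adjusted p = 0.000506). RPS12, a head protein, was at 0.16 (limma adjusted p = 0.00282).

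The difference between the clones was tested in the same fit. KO2 was above KO1 for 22 of the 33 genes and below it for none, where 11.8% of all tested genes were higher and 16.9% lower in KO2. At an unadjusted p under 0.05, 27 were higher in KO2 and 0 lower. Of all genes called between the clones 41.1% were higher in KO2, and 55.5% with median-centred libraries, where 26 small-subunit genes were higher. The median difference was 0.17 on the log2 scale (113% of KO1), against -0.04 over all tested genes. Libraries did not overlap for 26 genes, all higher in KO2, and 17% of all tested genes were higher in KO2 without overlap.

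The differences between the clones were 0.69 ± 0.042 for RPSA, 0.55 ± 0.044 for RPS24 and 0.32 ± 0.035 for RPS2 (log2, SE; limma adjusted p = 4.7e-06, 2.17e-05 and 0.00016). RPS15, RPS15A and RPS23 passed between the clones and in neither comparison with the control. RPS15 is a head protein, RPS23 is a body protein at the decoding centre and RPS15A is a platform and body protein. Of the genes called between the clones, FAU, RPS15, RPS15A and RPS23 lost the call when single clone libraries were left out, KO1 A, B or C or KO2 A, B or C depending on the gene, and RPS23 also without control B or C. RPS10, RPS13, RPS19, RPS25, RPS26, RPS27, RPS27A, RPS27L, RPS3A, RPS4X and RPS7, 11 genes in all, were called in no comparison. Among them RPS19, the gene most often mutated in Diamond-Blackfan anaemia, had a difference of 0.09 between the clones (95% interval 0.01 to 0.16, limma adjusted p = 0.0763).

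Summed over the 33 genes, the small subunit took 22615, 22868 and 22652 TPM in the control, 20883, 21040 and 20609 TPM in KO1 and 23983, 23889 and 24594 TPM in KO2. The lines did not overlap. The means were 22712 ± 137, 20844 ± 218 and 24155 ± 383 TPM (SD, n = 3), which put KO1 at 91.8% and KO2 at 106% of the control. Without RPSA and RPS24 the KO2 sum was 105% of the control, and that of KO1 was 91.7%. These shares are of the measured mRNA pool, so a lower level per cell and a larger pool of other mRNA cannot be told apart, nor can fewer cells with an mRNA and less of it in each cell.

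**Figure D3:**
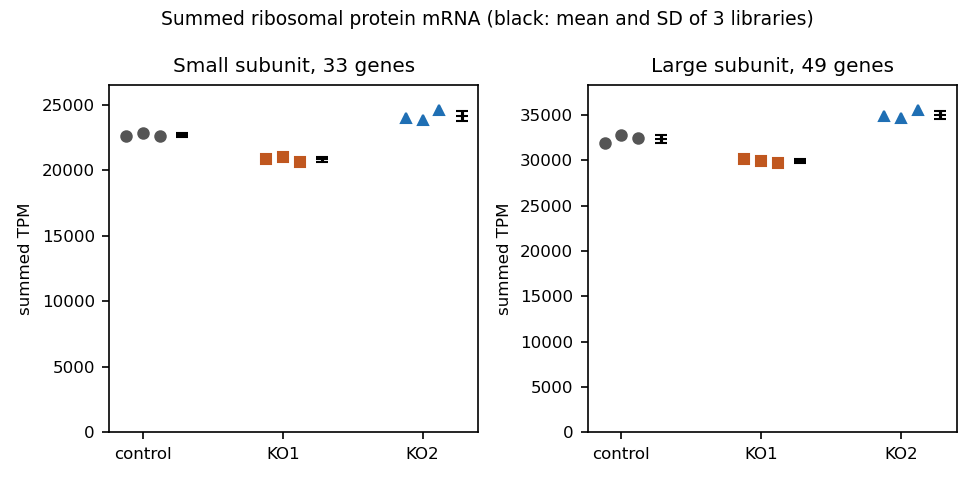
Summed TPM of the 33 small-subunit genes (left) and of the 49 large-subunit genes (right) in each library, with the mean and SD of each line in black. In both panels the 3 KO1 libraries are the lowest and the 3 KO2 libraries the highest, with small-subunit means of 20844 and 24155 TPM.

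The large subunit moved alongside. Its 49 genes summed to 32383 ± 457 TPM in the control, 29948 ± 233 in KO1 (92.5% of the control) and 35039 ± 449 in KO2 (108%; SD, n = 3). In KO1 22 of them fell and 3 rose, in KO2 14 rose and none fell, and 35 were higher in KO2 than in KO1. Over all tested genes 14.1% fell and 20.2% rose in KO1, and 14.8% fell and 15.6% rose in KO2. Between the clones, 11.8% of all tested genes were higher in KO2. The medians were -0.10, 0.09 and 0.18 on the log2 scale. The ratio of small to large subunit sums was 0.709, 0.697 and 0.699 in the control, 0.692, 0.702 and 0.694 in KO1 and 0.687, 0.689 and 0.692 in KO2. The clones' ratios therefore overlapped, and those of KO2 lay below the control. Among the large-subunit genes, RPL14, RPL32 and RPL29 rose in KO2 by 0.54, 0.48 and 0.48 on the log2 scale. The start of RPL14 lies 1.05 Mb from that of RPSA. The large-subunit sum and the ratio of KO2 include these genes, and neither was also taken without them.

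Within the small subunit, the head and the body with the platform were compared as lists. The shares of all tested genes were 14.1% lower in KO1, 15.6% higher in KO2 and 11.8% higher in KO2 than in KO1. Of the 14 head genes, 5 fell in KO1, 5 rose in KO2 and 10 were higher in KO2 than in KO1, with medians of -0.10, 0.05 and 0.18. Of the 18 body and platform genes, 8 fell, 4 rose and 12 were higher, with medians of -0.11, 0.06 and 0.18. The summed head genes of KO1 were 93.2% and the summed body genes 90.8% of the control. A list of 9 genes mutated in Diamond-Blackfan anaemia, which need not be complete, was also read. It gave 1 fall in KO1 (RPS29), 2 rises in KO2 (RPS24 and RPS28) and 4 genes higher in KO2 than in KO1. For these 9 genes, the first 2 counts are near the background of 14.1% lower in KO1 and 15.6% higher in KO2 over all tested genes.

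Sorted by start bases, the 19 genes with the C and pyrimidine run gave 9 falls in KO1 (median -0.12) and 4 rises in KO2 (median 0.05). The 7 genes with an entry and without the run gave 1 fall in KO1 (RPS29, median of the 7 -0.03) and 1 rise in KO2 (RPS28, median 0.06). Between the clones, 12 of 19 and 3 of 7 were higher in KO2. Over all tested genes 14.1% fell in KO1, 15.6% rose in KO2 and 11.8% were higher in KO2 than in KO1. The 1 fall and the 1 rise among the 7 genes are near these shares. The difference between these groups of genes was not tested.

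Neighbouring genes were read beside each member, since a stretch of a chromosome can move as a whole. The 25 tested genes on each side were used. The median of the neighbours lay beyond 0.25 on the log2 scale for 2 members in KO2, RPSA and RPS24. RPSA (chr3:39406716-39426255, GENCODE 44) had neighbours with a median of 0.38 in KO2, of which 33 of 50 rose and none fell, and 11 of the 50 lay above RPSA itself. The 50 include SNORA6 and SNORA62, which lie inside RPSA. Without them 32 of 48 rose, the median was 0.37 and 9 lay above RPSA. RPS24 (chr10:78033760-78056813) had neighbours with a median of 0.49 in KO2, of which 29 rose and 2 fell, and 23 lay above it. In KO1 the medians of the same neighbours were 0.07 and 0.02.

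**Figure D4:**
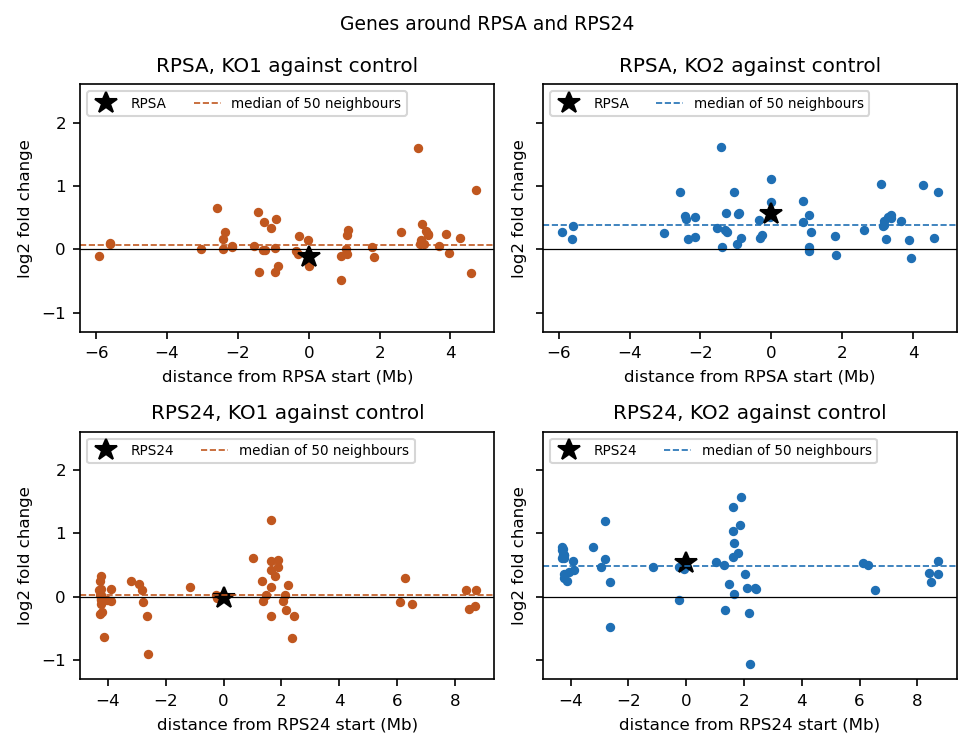
Log2 fold change against the control of RPSA (top), RPS24 (bottom) and the 25 tested genes on each side of them, by distance from the gene's start in Mb, in KO1 (left) and KO2 (right). The dashed line is the median of the 50 neighbours. In KO2 it stands at 0.38 around RPSA and at 0.49 around RPS24, and in KO1 near 0.

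With a running median of neighbouring genes subtracted from each library, RPSA kept a value of 0.17 in KO2 (limma adjusted p = 0.0154) and of 0.39 between the clones (limma adjusted p = 0.000233), and RPS24 was at 0.04 (limma adjusted p = 0.6), or at 0.12 between the clones (limma adjusted p = 0.135). RPS2 was at 0.14 in KO2 (limma adjusted p = 0.126) and at -0.10 in KO1 (limma adjusted p = 0.268). RPS18 was at -0.07 and FAU at -0.06 in KO1 (limma adjusted p = 0.292 and 0.374). In the other direction, RPS4X, RPS15 and RPS15A were newly called lower in KO1 (-0.13, -0.19 and -0.16, limma adjusted p = 0.0203, 0.00896 and 0.00703). The fall of RPSA in KO1 was larger, at -0.22 (limma adjusted p = 0.00368). The number of genes that fell in KO1 stayed at 13. Over the set, 28 of 33 genes lay below their neighbours' median in KO1 (median gap -0.12) and 29 above it in KO2 (median gap 0.09). Between the clones, 32 of 33 lay above it (median gap 0.23). Among genes that act on the small subunit, the same subtraction left RRP9 without a call between the clones, and EIF4EBP2 and TIAL1 without one in KO2.

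Within 9 of these genes lie 20 annotated small nucleolar RNAs, a class that guides the modification of ribosomal RNA and is cut from host introns. The table lists 6 of them, each with few reads. SNORA6, inside RPSA, was at 21 TPM in the control, 18.1 in KO1 and 45.2 in KO2 from 96 reads in all libraries together (log2 fold change in KO2 1.10, limma adjusted p = 0.00112). SNORA62, also inside RPSA, was at 0.75 in KO2 (limma adjusted p = 0.105) and was called between the clones (1.01, limma adjusted p = 0.0382). The other 4, in RPS12, RPS3 and RPS2, were not called in any comparison.

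Genes that act on the small subunit were read from lists, whose counts stand beside 20.2% of all tested genes that rose and 14.1% that fell in KO1, and 15.6% that rose and 14.8% that fell in KO2. Against these shares the rises of the assembly factors in KO1 and of the ubiquitination and recycling factors in both clones were close to the background. The assembly factors called lower made up a smaller share than over all tested genes in both clones. Of 57 factors for its assembly, 14 were called higher and 4 lower in KO1 (median 0.04), against 15 higher and 2 lower in KO2 (median 0.09). NOP58, a core protein of box C/D small nucleolar particles, was called higher in both clones. It rose by 0.55 in KO1 (limma adjusted p = 3.1e-05) and by 0.45 in KO2 (limma adjusted p = 9.48e-05). UTP20, of the early pre-ribosome, was 0.46 higher in KO1 and was not called in KO2 (0.10, limma adjusted p = 0.167). NOP56, the partner of NOP58 in these particles, was called lower in both clones (KO1 -0.37, limma adjusted p = 2.35e-05, and KO2 -0.35, limma adjusted p = 2.76e-05), and was named after its values were seen. RRP12, an export factor of the pre-ribosome, was 0.67 higher in KO2 (limma adjusted p = 2.66e-05), and PDCD11, another early factor, was 0.63 higher. Both were also called higher in KO1, by 0.26 and 0.25 (limma adjusted p = 0.00957 and 0.000964). RRP9, which binds the U3 RNA, was 0.56 higher in KO2 than in KO1. All these differences are on the log2 scale.

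Of the 7 tested kinases named for RPS6, 3 fell in KO1 and none rose, and 4 fell and 1 rose in KO2. All tested genes gave 14.1% falls and 20.2% rises in KO1, and 14.8% falls and 15.6% rises in KO2. The 1 rise in KO2 was close to its share. RPS6KA2, a kinase of the RSK family, was lower in both, at -1.07 in KO1 (log2; limma adjusted p = 0.00026) and -3.117 in KO2 (limma adjusted p = 2.07e-07). RPS6KA3, of the same family, fell by 0.44 in KO1 and by 0.32 in KO2 (limma adjusted p = 0.00064 and 0.00386).

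Of 11 regulators of TOP mRNAs, 4 were called higher and 1 lower in KO1, against 2 higher and none lower in KO2. LARP1, which binds the cap and the pyrimidine run of TOP mRNAs, rose in KO1 by 0.55 (limma adjusted p = 0.000106) and was lower in KO2 than in KO1, with a log2 difference of -0.39 (limma adjusted p = 0.00105). RPTOR, the subunit of mTOR complex 1 that binds its substrates, rose by 0.30 in KO1. EIF4EBP2, a repressor of cap-dependent translation that mTOR phosphorylates, rose in both clones. Its rise was 0.62 in KO2 (limma adjusted p = 1.71e-05) and 0.29 in KO1 (limma adjusted p = 0.00209). TIAL1, an RNA-binding protein linked to TOP mRNAs under stress, rose by 0.33 in KO2.

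Of 15 TOP mRNAs that do not encode ribosomal proteins, 4 were called higher and 2 lower in KO1 (median -0.04), against 7 higher and none lower in KO2 (median 0.13). PABPC1, the cytoplasmic poly(A)-binding protein, rose in both clones (0.35 and 0.31, limma adjusted p = 9.05e-05 and 0.000166). HNRNPA1 rose by 0.26 in KO1 and by 0.23 in KO2 (limma adjusted p = 0.000738 and 0.00176). EIF3F, a subunit of the factor that sits on the small subunit at initiation, also rose in both clones. Its rise was 0.28 in KO2 and 0.20 in KO1 (limma adjusted p = 0.000632 and 0.00478). The elongation factors EEF1B2 and EEF2 were 0.25 and 0.24 higher in KO2 than in KO1. TPT1, a translationally controlled protein, and EIF4B, an initiation factor, were the 2 called lower in KO1 (-0.13 and -0.12, limma adjusted p = 0.0228 and 0.011), and were named after their values were seen.

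Of 12 factors that ubiquitinate, rescue or recycle the small subunit, 3 rose and none fell in KO1, and 2 rose and none fell in KO2. OTUD3, a deubiquitinase, rose by 0.47 in KO1, and RIOK3, a kinase linked to the decay of marked small subunits, rose in both clones (0.30 and 0.42). ZNF598, the ligase that marks stalled ribosomes, rose by 0.32 in KO2.

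Within lines the small-subunit genes varied little. The SD of log2 TPM pooled over the lines had a median of 0.0411 over the set and of 0.108 over all tested genes. The tested genes reach down to a mean of 1 TPM, and the set was not compared with genes of like read number. The pooled SD was low for RPS3 (0.0173) and RPS20 (0.0174), and highest for RPS27 (0.194), RPS3A (0.127) and RPS7 (0.0906). RPS27 moved the most in control A (0.20 above its line's mean) and in KO1 A (0.27 below, a deviation of -0.27), and its intervals are the widest of the set. In KO2 C 28 of the 33 genes lay above the mean of the line, by a median of 0.0285 on the log2 scale, and in KO2 B 24 lay below it.

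The set lies on 17 chromosomes, with 7 genes on chromosome 19, and the GC content of its canonical transcripts ran from 41.5% to 61.3%. Across the 33 genes, deviation from the line mean went with GC content at r = -0.497 in control A, 0.527 in control C, 0.512 in KO2 B and -0.398 in KO2 C, given as descriptions over genes that share a library. The log2 fold change in KO1 had a Spearman rho of -0.344 with GC content. RPS10 shares its strand with the read-through gene RPS10-NUDT3, and 13 genes of the set overlap another listed gene, so that their reads could be shared.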

How the data were processed

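The deposited table holds log2 TPM values that the authors made from the 9 input libraries of MEL624 cells. The submitters' processing notes name build hg38 and the tools edgeR 3.12.1, featureCounts, HISAT2 2.0.4, deepTools 3.0.2, SAMtools 1.7 and R 3.3.3. Their roles, the gene models, the use of strand and any filter on genes were not given in the sources used here. A small prior count is part of the deposited log2 values, and whole reads could be recovered from them for 100% of genes (tolerance 0.001 reads). No replicate was a copy of another: chi-square per degree of freedom between libraries of a line ran from 1.22 to 3.71.

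Symbols, positions and pseudogenes came from GENCODE 44, which held 15138 of 15258 identifiers. The test was limma-trend (limma 3.58.1, R 4.3.3) on log2 TPM with 1 mean per line over all 9 libraries, after a filter of a mean of at least 1 TPM, with Benjamini-Hochberg adjustment over 14512 genes and a threshold of 0.05. With 1 control line and 2 clones, p-values reflect how far libraries of the same line spread, not independently edited lines. The exact permutation test for PCIF1 gave p = 0.1 in KO1 and 0.5 in KO2, where 0.1 is the smallest that 3 against 3 allow. The fit was tested on simulated data.

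The genes and all lists were chosen with earlier results of these data known. Any member may be named. Values in each library are given for RPSA, FAU, RPS27L and the 4 members with the largest called change per comparison, and 2 genes per comparison are named from each other list. Values of some genes that this rule took are not reported here. RPS20 and RPS27 were given by library after their values were seen. Replicate letters did not pair the libraries (residual correlations of same-letter libraries between -0.0736 and 0.0371). Alternatives covered the pseudocount, the filter, scaling, the variance trend, a fit of the lines compared, limma-voom on recovered reads, GC content and length, pseudogene reads, the replicate letter as a block and each library left out.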

Additional observations from a re-analysis of the deposited data

Results flagged for a closer look

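The difference between the clones, KO2 against KO1, passed the test in the joint limma fit for 22 small-subunit genes, all higher in KO2. Among them, the log2 differences were 0.69 for RPSA, 0.55 for RPS24, 0.32 for RPS2, 0.28 for RPS9, 0.27 for RPS21, 0.27 for RPS18, 0.27 for RPS29, 0.23 for RPS12 and 0.22 for RPS28. They were 0.21 for RPS16, 0.19 for RPS20, 0.18 for RPS6, 0.16 for RPS3, 0.15 for RPS15A, 0.15 for RPS14, 0.14 for RPS15, 0.11 for FAU and 0.10 for RPS23. For 13 of the 22 genes the value in KO2 against the control alone was not called, and the neighbouring genes differed between the clones by a median of 0.28 for RPSA and of 0.43 for RPS24. With a running median of neighbouring genes subtracted, the difference was 0.39 for RPSA and 0.12 for RPS24, which was not called (limma adjusted p = 0.135).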

How the results depend on the processing

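Over 23 alternatives, 2119 of 2277 values of small-subunit genes kept their side of the threshold (59 of them, called in neither setting, changed sign). A further 87 were no longer called and 70 were newly called. The remaining 1 was not called in the main fit and was newly called with the opposite sign. With limma-voom on recovered reads 22 genes fell in KO1, against 13. Quantile normalization gave this 1 value, a fall of RPS3 in KO2. Its log2 fold change was 0.037 in the main fit (limma adjusted p = 0.339) and -0.082 with quantile normalization. The cause of this change of sign was not tested. The replicate block gave 10 falls in KO1, 8 rises in KO2 and 19 genes higher in KO2 than in KO1. Leaving out 1 library at a time gave 10 to 16, 8 to 9 and 17 to 22. The running median of neighbouring genes, chosen after seeing the data, reversed EIF4EBP2 (-0.184) and TIAL1 (-0.031) between the clones and RPL32 in KO2 (-0.027). RPS6, RPS21, RPS16, RPS3, RPS9 and RPS29 kept their fall in KO1, and RPS12, RPS20, RPSA and RPS28 their rise in KO2, under all 23 alternatives. At the lowest read number of a gene, 392 in RPS10, counting error alone is 5.05%.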
